A study of Mus musculus with 2 samples.

Results

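The data described here are the transcripts of 10 chemokine and inflammatory cytokine genes, Ccl2, Ccl3, Ccl4, Ccl12, Cxcl2, Cxcl12, Cxcl14, Cxcl16, Il1b and Tnf, in single brain cells of mice carrying human APOE. The genes were chosen by symbol, and all 10 were found among the 32285 genes of the deposited count tables. The mice were female, 11 to 12 months old and homozygous for either human APOE E3 or human APOE E4, which stand in place of the mouse Apoe coding sequence under the mouse Apoe promoter. For each genotype, right hemispheres without brainstem and cerebellum from 3 perfused mice were pooled, dissociated with warmed enzymes and loaded as 1 droplet library, so both groups share the knock-in design and differ in the allele. With 1 library of pooled animals per genotype there is no replicate check, no test between genotypes could be made, and all intervals below cover counting error only.

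Chemokines are small secreted proteins that draw cells bearing matching receptors along a gradient. The CC members Ccl2 and Ccl12 attract monocytes through Ccr2, and Ccl3 acts on Ccr1 among others. Among CXC members, Cxcl2 recruits neutrophils, Cxcl12 holds and guides cells that carry Cxcr4, Cxcl16 is a membrane-bound ligand of Cxcr6, and Cxcl14 is made without an inflammatory stimulus in several tissues. Il1b encodes interleukin 1 beta and Tnf encodes tumour necrosis factor, the classic early cytokines of activated myeloid cells, and in the brain microglia and the macrophages of its borders are the usual sources of both.

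Of the 10 genes, 5 lie on mouse chromosome 11. On GRCm38, the assembly also called mm10, Ccl3 (ENSMUSG00000000982, chr11:83647844-83649355, minus strand) and Ccl4 (ENSMUSG00000018930, chr11:83662584-83664683, plus strand) are neighbours 13.2 kb apart, and Ccl2 (chr11:82035571-82037453) lies 64.4 kb from Ccl12 (chr11:82101845-82103400), both on the plus strand. Cxcl16 is at chr11:70453983-70459984 on the minus strand. The others are Cxcl2 (chr5:90903871-90905938, plus), Cxcl12 (chr6:117168535-117181367, plus), Cxcl14 (chr13:56288643-56296551, minus), Il1b (chr2:129364570-129371139, minus) and Tnf (chr17:35199381-35202007, minus). The positions are whole genes of the GENCODE vM21 annotation. The 250 bases before the RefSeq start site (GRCm38.p6) were read for the 7 members that the promoter table holds, Ccl3, Ccl12, Cxcl2, Cxcl12, Cxcl14, Il1b and Tnf. They were searched on both strands for the NF-kappaB consensus (the kB motif), the AP-1 motif TGANTCA and the TATA box TATAAA. The stretches are shown because inducible cytokine genes are known targets of these factors. Capitals mark the match.
Cxcl2, kB motif, chr5:90903782-90903831, plus strand: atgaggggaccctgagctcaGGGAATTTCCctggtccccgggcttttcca
Ccl12, TATA box, chr11:82101794-82101839, plus strand: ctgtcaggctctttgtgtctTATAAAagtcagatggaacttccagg
Il1b, TATA box, chr2:129371145-129371190, minus strand: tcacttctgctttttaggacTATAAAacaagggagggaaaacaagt
Tnf, TATA box, chr17:35202011-35202056, minus strand: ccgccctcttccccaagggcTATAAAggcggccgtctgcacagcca
The Cxcl2 match, which also reads as a kB motif on the other strand shifted by 1 base, was the 1 kB match in the 7 member promoters, against 3.90% of 32851 promoters of that length. The TATA box was found in 3 of 7 member promoters, 24 to 26 bases before the start, against 12.4% of all promoters. The AP-1 motif was found in 0 of 7 and in 6.75% of all promoters. A match is a description of the letters and not a bound site.

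The E3 library held 11485 cells and 56415229 transcripts counted by unique molecular identifiers (UMIs), and the E4 library held 13802 cells and 71625170 UMIs. After the UMI and mitochondrial limits that the study states, 11288 E3 and 13528 E4 cells remained. These are more than the study reports for either genotype, and the study also removed small clusters of suspected doublets. The cells were clustered together without the 10 genes. Of 34 clusters 29 took a name from marker genes, giving 13 classes written here as microglia-like, astrocyte-like and so on. No cluster took the name of neurons. Clusters that were shallow, mixed or short of markers stayed unnamed and held 8.45% of E3 and 8.29% of E4 cells. The libraries shared 46 cell barcodes, and mouse Apoe, the targeted gene, stood at 84.7 and 93.9 counts per 1000000 UMIs (CPM) in E3 and E4, so that it does not tell the genotypes apart. Levels below are CPM of all UMIs of the class in that library.

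Macrophage-like cells, which carry the border macrophage markers Mrc1, Cd163 and Lyve1, had the highest level of 8 of the 10 genes in both libraries among the 10 classes with at least 100 cells in each, although they made up 177 of the E3 and 197 of the E4 cells. In E3 the interval of the leading class overlaps that of the next for Tnf (6.85 to 28.5 CPM against 8.05 to 11.6 in microglia-like cells) and for Cxcl16. The leading class was the same for 7 of the 10 genes without called doublets and for 8 at the finer clustering. Not led by macrophage-like cells were Cxcl12, highest in endothelial-like cells, and Cxcl14, highest in astrocyte-like cells. Level and share of transcripts did not point to the same source: microglia-like cells, 3192 in E3 and 3939 in E4, held 85.3% and 87.3% of all Ccl4 UMIs, 81.4% and 82.5% of Ccl3 UMIs and 81.3% and 84.4% of Tnf UMIs. Cells of the macrophage-like class held 95.1% of Cxcl2 UMIs in E3 and 82.7% in E4. For Ccl12 the main holder changed, with 62.0% of UMIs in macrophage-like cells in E3 and 26.4% in E4, against 33.3% and 63.9% in microglia-like cells. The shares depend on how many cells of each class were recovered.

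**Figure D1:**
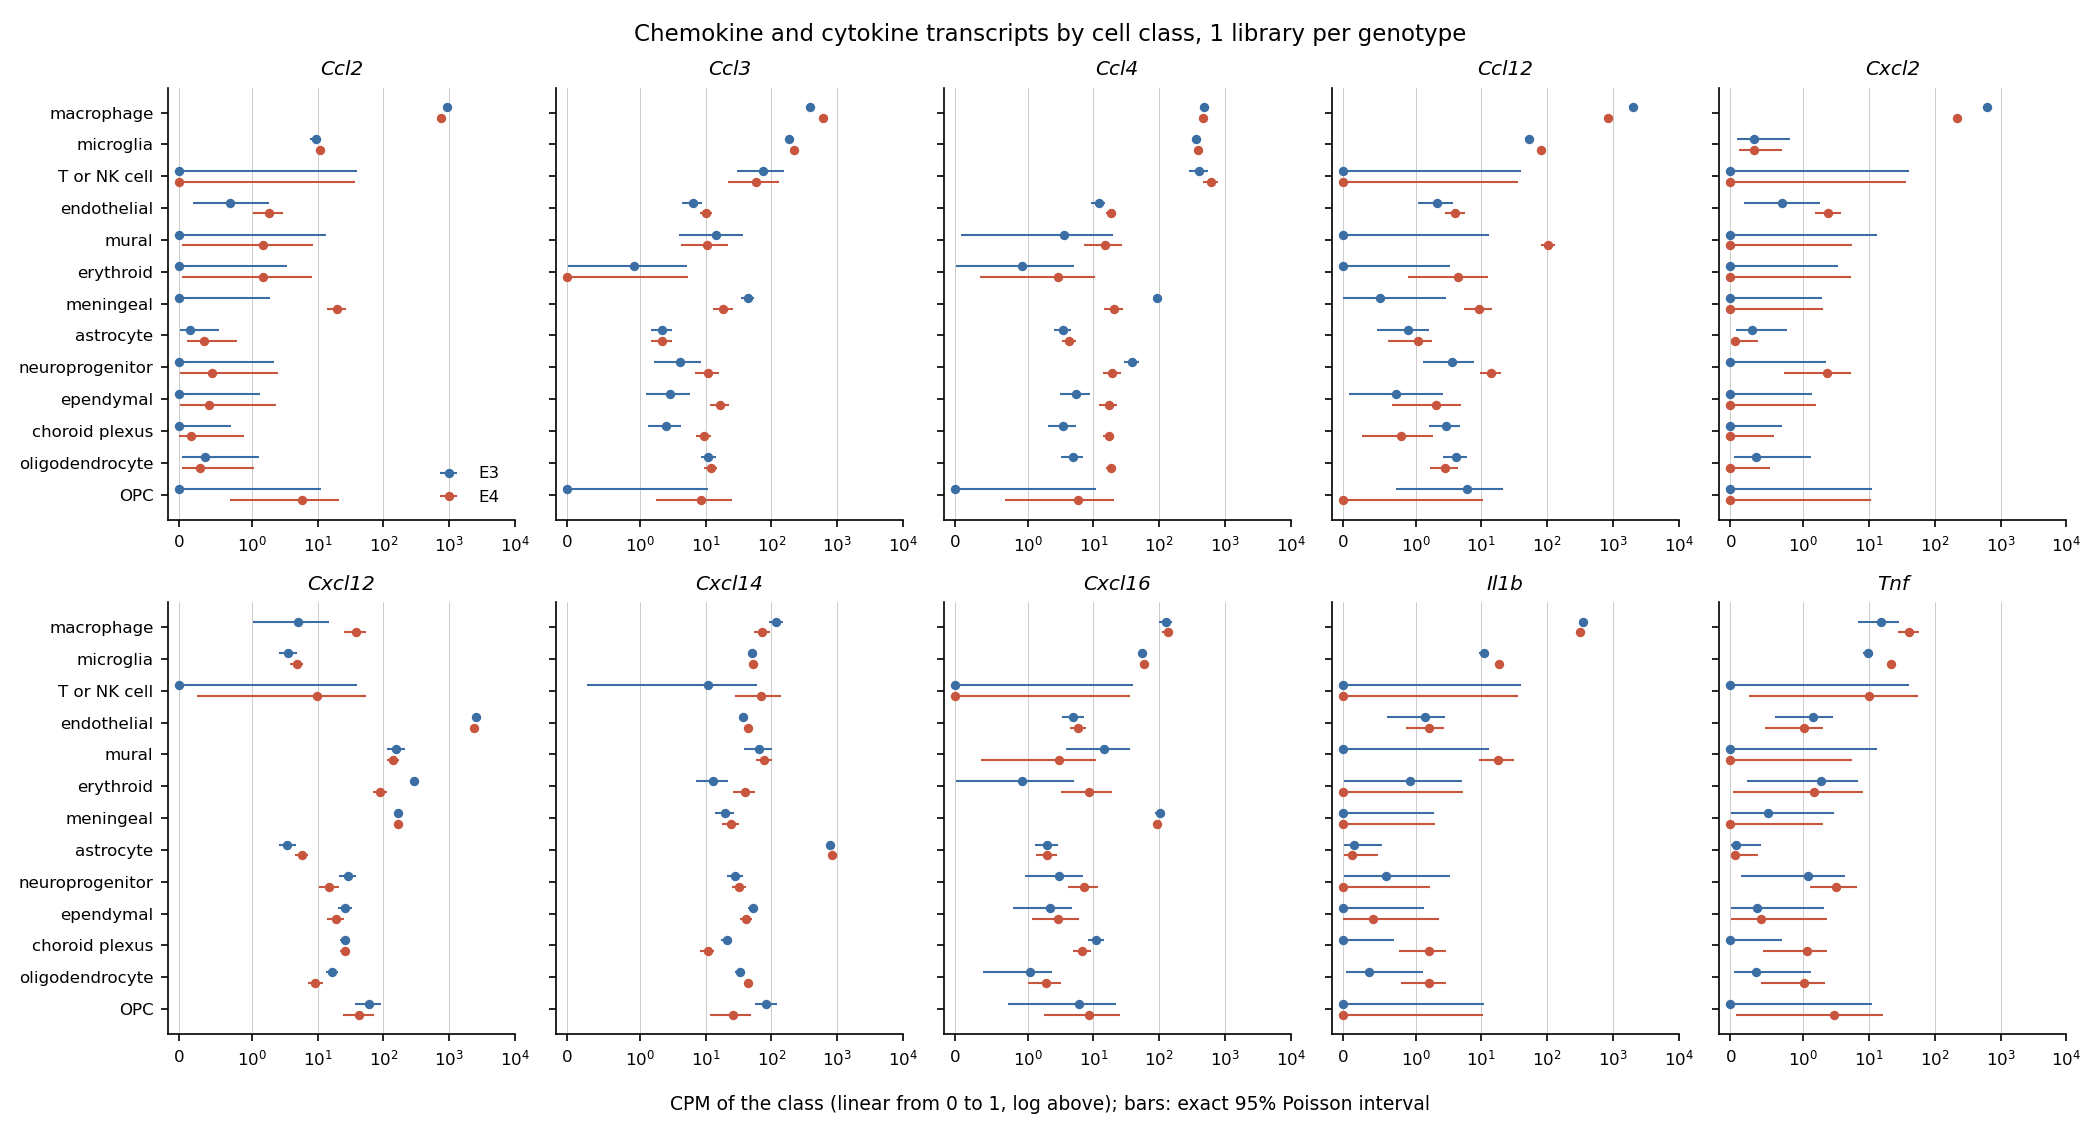
Levels of the 10 genes (CPM of the class, linear from 0 to 1 and logarithmic above) in 13 cell classes of the E3 (blue) and E4 (red) libraries, with exact 95% Poisson intervals. Among the classes of at least 100 cells, macrophage-like cells lie farthest right for 8 genes, with overlapping intervals for Tnf and Cxcl16 in E3 and a leading class that is the same for 7 of 10 genes without called doublets, at 2045 CPM of Ccl12 in E3, while Cxcl12 reaches 2602 CPM in endothelial-like and Cxcl14 787 CPM in astrocyte-like E3 cells.

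Ccl3 and Ccl4, which encode the macrophage inflammatory proteins, were myeloid genes. In macrophage-like cells Ccl3 reached 391 CPM in E3 (95% interval 343 to 445) against 609 CPM in E4 (555 to 668). In microglia-like cells it reached 183 CPM (176 to 191) against 222 CPM (215 to 229). The E4 value was 1.56-fold that of E3 in macrophage-like and 1.21-fold in microglia-like cells, and the first fell to a log2 ratio of 0.09 when each cell counted alike. Of macrophage-like cells 18.1% and 21.3% carried Ccl3. Ccl4 stood at 476 and 465 CPM in macrophage-like cells, whose intervals overlap, and at 368 and 388 CPM in microglia-like cells. The small T or NK cell-like class, with 23 and 26 cells, also held Ccl4 at 399 and 612 CPM, carried by 5 and 8 cells. Thinned to 1000 UMIs per cell, which left out 66 E3 and 32 E4 microglia-like cells, 7.42% and 8.11% of microglia-like cells carried Ccl4, against 0.409% and 0.557% of astrocyte-like cells (617 and 598 left out). In astrocyte-like cells, which are not a known source, Ccl4 stood at 3.39 and 4.28 CPM, carried by 1 or 2 UMIs per cell in 42 and 62 cells.

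In several other classes Ccl3 and Ccl4 rested on single cells. In meningeal-like cells, 1 E3 cell held all 85 Ccl3 UMIs and 1 held 158 of 179 Ccl4 UMIs. In choroid plexus-like E4 cells, 1 cell held 74 of 106 Ccl4 UMIs, and in ependymal-like E4 cells 1 held 31 of 41. The E4 to E3 folds of Ccl4 in these last classes were 4.91 and 3.11. In oligodendrocyte-like cells 27 Ccl4 UMIs lay in 17 E3 cells and 126 in 33 E4 cells, 26.2% of them in 1 cell, a fold of 3.84. Ccl3 in that class lay in 14 and 28 cells, at 11.1 and 11.9 CPM. The oligodendrocyte-like cluster led by Arc, with 34 and 57 cells, held 13 and 103 of the Ccl4 UMIs. It held 54 of 62 and 63 of 81 Ccl3 UMIs and carried microglia markers at 10908 and 10827 CPM summed. The part of microglia RNA in this was not tested. In the largest cluster, led by Ermn and Opalin, the log2 ratio of Ccl4 was 0.49 (-0.63 to 1.66). In endothelial-like cells, 1 of 1073 E3 cells held 61.8% and 1 of 1575 E4 cells held 39.0% of Ccl4 UMIs.

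The monocyte attractants Ccl2 and Ccl12 differed between the myeloid classes. Ccl2 was highest in macrophage-like cells, which held 78.4% of its UMIs in E3 and 66.0% in E4 against 16.4% and 24.0% in microglia-like cells. Its levels were 929 CPM (854 to 1010) in E3 against 746 CPM (685 to 811) in E4 macrophage-like cells, and 9.30 and 10.9 CPM in microglia-like cells. In meningeal-like E4 cells 1 cell held 35 of 36 Ccl2 UMIs. Its macrophage-like level was lower in E4 by 0.32 on the log2 scale, with a counting interval from 0.14 to 0.49 lower. Macrophage-like Ccl12 was 2045 CPM (1933 to 2163) in E3 against 831 CPM (767 to 899) in E4, a log2 ratio of -1.30 (-1.44 to -1.16). In microglia-like cells Ccl12 went the other way, with 52.4 CPM (48.5 to 56.6) in E3 against 80.7 CPM (76.7 to 84.9) in E4, a log2 ratio of 0.62 (0.49 to 0.76). The share of macrophage-like cells with a Ccl12 UMI was 39.5% in E3 and 35.5% in E4, from 70 cells in each. Thinned to 1000 UMIs, 54 of 153 E3 cells (35.3%) and 42 of 168 E4 cells carried it. The astrocyte-like shares after thinning were 0.0682% and 0.0880%. Mural-like cells held 0 Ccl12 UMIs in E3 and 69 in E4, of which 1 cell held 66.

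Cxcl2, the neutrophil attractant, was nearly limited to macrophage-like cells. Macrophage-like cells held 611 CPM (550 to 677) in E3 against 220.3 CPM (188 to 257) in E4, a log2 ratio of -1.47 (-1.75 to -1.20). Only 20 E3 and 13 E4 macrophage-like cells carried it, and 3 cells in E3 and 2 in E4 held more than 50% of its UMIs. Microglia-like cells stood at 0.318 and 0.325 CPM, from 4 and 6 UMIs in all. The fold of Cxcl2 thus compares a few cells of each pool.

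Cxcl16 had several sources. It stood at 125 and 135 CPM in macrophage-like, 101.2 and 93.7 CPM in meningeal-like and 55.6 and 57.9 CPM in microglia-like cells, and the macrophage-like and meningeal-like intervals overlap in E3 (98.3 to 157 against 87.5 to 116 CPM) but not in E4 (109.96 to 164 against 80.3 to 109 CPM). In the meningeal-like class 50.6% of E3 and 45.3% of E4 cells carried a Cxcl16 UMI, at median depths of 8415 and 7302 UMIs. In astrocyte-like cells, at median depths of 3626 and 3701 UMIs, the shares were 0.733% and 0.698%. The counting interval of the log2 ratio of E4 to E3 held 0 in all 3 classes.

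Cxcl12 was an endothelial gene, with 81.6% and 83.8% of its UMIs in endothelial-like cells. These cells held 2602 CPM (2560 to 2644) in E3 against 2403 CPM (2371 to 2436) in E4, and 89.7% and 88.6% of these cells carried it. The E4 level was lower by 0.11 on the log2 scale (0.08 to 0.14; 0.04 without called doublets), and it was the lower one in each of the 5 endothelial-like clusters. The cluster led by Gkn3, Sema3g and Bmx was highest, at 2965 and 2817 CPM. Meningeal-like cells held 166 and 168 CPM and mural-like cells 157 and 139 CPM. Erythroid-like cells stood at 293 and 89.8 CPM, but 11 of 152 E3 and 7 of 116 E4 cells carried these UMIs.

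Cxcl14 was an astrocyte gene, with 787 CPM (772 to 802) in E3 against 829.7 CPM (815 to 845) in E4, a log2 ratio of 0.08 (0.04 to 0.11). The direction turned to -0.04 under the stricter cell filter. Of astrocyte-like cells 81.3% and 83.9% carried it, and no cell held more than 0.201% of its UMIs. The highest level, 1198 and 1239 CPM, was in the shallow cluster led by Scrg1 and Baalc, at median depths of 783 and 775 UMIs. The cluster led by Hapln1 and Fezf2 stood at 939 and 1004 CPM and the one led by Igsf1 and Agt at 563 and 582 CPM. The small cluster led by Myoc and Gfap stood at 96.2 and 94.8 CPM, so Cxcl14 varied more among astrocyte-like clusters than between libraries.

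Il1b and Tnf were scarce. Il1b was at 358 and 318 CPM in macrophage-like cells, with overlapping intervals. In microglia-like cells it was at 11.0 CPM (9.28 to 13.04) and 18.4 CPM (16.5 to 20.5), a log2 ratio of 0.74 (0.45 to 1.03). After thinning to 1000 UMIs, 0.736% (0.47 to 1.10) of E3 and 0.896% (0.62 to 1.24) of E4 microglia-like cells carried Il1b, with overlapping intervals. Tnf stood at 9.69 CPM (8.05 to 11.6) and 21.1 CPM (19.1 to 23.3) in microglia-like cells, a log2 ratio of 1.12 (0.83 to 1.43), the highest among the measured members there. The share of microglia-like cells with a Tnf UMI was 2.60% in E3 and 5.61% in E4, and 0.768% and 1.71% after thinning to 1000 UMIs. In astrocyte-like cells the share was 0.0282% and 0.0249%. Macrophage-like cells carried 9 Tnf UMIs in E3 and 30 in E4.

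In microglia-like cells every one of the 9 members with 50 or more UMIs in all had the higher level in E4, with a median log2 ratio of 0.28, where 63.2% of all genes measured there were higher and the median was 0.06. Ccl12, Il1b and Tnf were at least 1.5-fold higher, 3 of 9, beside 341 of 11893 genes or 2.87% in all. The direction was not kept by Ccl4 with the 4 clusters weighted alike (-0.13), by Ccl2 without the Atf3-led cluster (-0.18), or by Cxcl14 under 7 alternatives (down to -0.22). None of the 9 was 1.5-fold lower, beside 1.24%. Markers of other cells were also higher in E4 microglia-like cells, 7 of 7 astrocyte markers at 1330 and 1650 CPM summed, 7 of 7 choroid plexus markers at 518 and 596 CPM and 7 of 8 mural markers at 26.9 and 37.8 CPM, and their part in the results, Cxcl14 and Cxcl12 among them, was not tested. In macrophage-like cells 1 of 8 members was 1.5-fold higher (Ccl3, background 6.34%) and 3 of 8 were 1.5-fold lower (Ccl12, Cxcl2 and Cxcl14, background 5.08%), where 57.8% of all genes measured were higher and 42.2% lower. Of the 71 E3 and 54 E4 Cxcl14 UMIs in macrophage-like cells, 58 and 33 lay in the 12 and 6 cells led by the astrocyte genes Entpd2 and Hes5. Among the 5 macrophage-like sub-clusters with Cxcl14, its level was higher in E4 in 3 and lower in 2. In endothelial-like cells 2 of 5 were 1.5-fold higher (Ccl3 and Ccl4, background 3.58%) and 0 of 5 lower (background 1.15%). All 8 microglia markers were higher in E4 there too, at 1186 and 1301 CPM summed, and their part in the result was not tested. Of endothelial-like Ccl3 UMIs, 1 cell held 13 of 36 in E3 and 1 held 38 of 89 in E4. The cluster led by Rnf125 and Ly75, with microglia markers at 13503 and 15322 CPM, held 28 and 31 Ccl3 UMIs. It held 51 of 68 and 50 of 159 Ccl4 UMIs. The cluster led by Slc38a5 held 5 and 52 Ccl3 UMIs and 8 and 86 Ccl4 UMIs. In astrocyte-like cells 1 of 5 was 1.5-fold higher (Cxcl12 at 3.46 and 5.70 CPM, background 1.51%) and 0 of 5 lower (background 1.77%). Of 8 endothelial markers 7 were higher in E4 astrocyte-like cells, at 43.5 and 53.0 CPM summed, and their part was not tested. Median depth of microglia-like cells was 3747 UMIs in E3 and 4361 in E4.

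**Figure D2:**
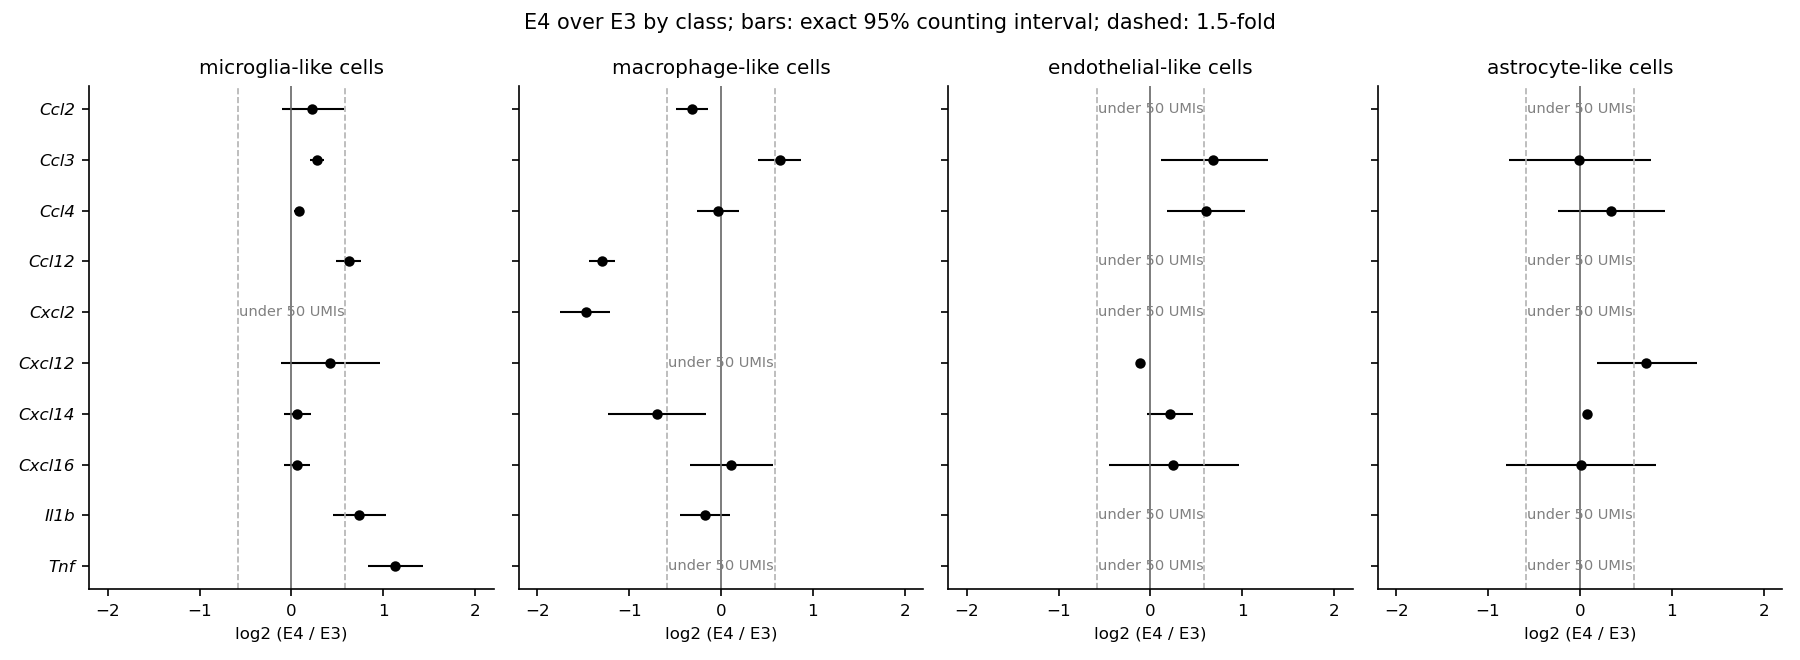
Log2 ratio of E4 to E3 for each gene with at least 50 UMIs in microglia-like, macrophage-like, endothelial-like and astrocyte-like cells, with exact 95% counting intervals and dashed lines at 1.5-fold. Tnf lies farthest right in microglia-like cells at 1.12, and Ccl12 lies at 0.62 there and at -1.30 in macrophage-like cells.

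The microglia-like cells fell into 4 clusters, made without the 10 genes. Ccl3, Ccl4, Il1b and Tnf had their highest level in the cluster led by the immediate-early genes Atf3, Egr1 and Fosb, with 401 E3 and 705 E4 cells, 12.6% and 17.9% of the class. There Ccl4 reached 1617 and 1116 CPM in E3 and E4, and it was at 39.1 and 43.5 CPM in the cluster led by Slc2a5 and P2ry12, a homeostatic microglial receptor. The cluster led by Hist1h1d and Rgs1 lay between, at 509.5 and 642 CPM. The Atf3 cluster alone held 57.9% of microglia-like Ccl4 UMIs in E3 and 52.6% in E4, 63.3% and 66.8% of Il1b UMIs and 56.6% and 69.0% of Tnf UMIs. Ccl3 was split, with 43.8% and 48.0% of its UMIs in the Atf3 cluster and 45.3% and 40.5% in the Rgs1 cluster. Il1b reached 53.2 and 67.3 CPM in the Atf3 cluster, 8.93 and 19.2 CPM in the Rgs1 cluster and 3.40 and 2.32 CPM in the P2ry12 cluster. Its log2 ratio was 1.11 (0.48 to 1.77) in the Rgs1 cluster. The interval held 0 in the Atf3 cluster (0.34, -0.02 to 0.71) and in the P2ry12 cluster (-0.55, -1.50 to 0.39). Summed immediate-early and stress genes stood at 3496 and 3597 CPM in the P2ry12 cluster and 44431 and 46981 CPM in the Atf3 cluster, and whether dissociation had a part in either was not tested.

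Direction between genotypes depended on the cluster for Ccl4. It was lower in E4 in the Atf3 cluster, a log2 ratio of -0.53 (-0.61 to -0.46), and higher in the Rgs1 cluster, 0.33 (0.24 to 0.42). In the P2ry12 cluster the interval of the ratio held 0 (-0.08 to 0.39). The largest Ccl4 difference was in the cluster led by Csf2rb and Arhgap45, at 34.7 and 148 CPM, a log2 ratio of 2.09 (1.63 to 2.59). That cluster also held the astrocyte markers given below, and their part in the ratio was not tested. Ccl3 showed no reversal of direction beyond counting error, with -0.07 (-0.18 to 0.05) in the Atf3 cluster and 0.31 (0.20 to 0.42) in the Rgs1 cluster. These intervals did not overlap, and the Ccl3 ratio in the Csf2rb cluster was 1.18 (0.61 to 1.78). Tnf was at 41.7 and 79.7 CPM in the Atf3 cluster, a log2 ratio of 0.94 (0.55 to 1.34), and at 12.0 and 17.5 CPM in the Rgs1 cluster, where the interval of the ratio held 0 (-0.03 to 1.15). Without the Atf3 cluster, an alternative chosen after seeing the data, the class ratio of Tnf was 0.73 and that of Ccl4 was 0.33.

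Ccl12 and Cxcl16 were spread more evenly. The E4 level of Ccl12 was the higher one in all 4 clusters, with a ratio whose interval held 0 in the last of them, at 45.7 and 70.4 CPM in the P2ry12 cluster, 48.9 and 89.6 in the Rgs1 cluster, 111 and 134 in the Atf3 cluster and 18.2 and 25.1 in the cluster led by Csf2rb and Arhgap45. Cxcl16 lay between 55.8 and 68.3 CPM in the first 3 of these clusters in both libraries. Cxcl14 behaved differently from all others, since the Csf2rb cluster held 79.1% and 81.6% of its microglia-like UMIs. That cluster also held the astrocyte markers at 9130 and 9516 CPM summed, against 463 and 515 CPM in the P2ry12 cluster, and the part of astrocyte RNA in its Cxcl14 was not tested.

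**Figure D3:**
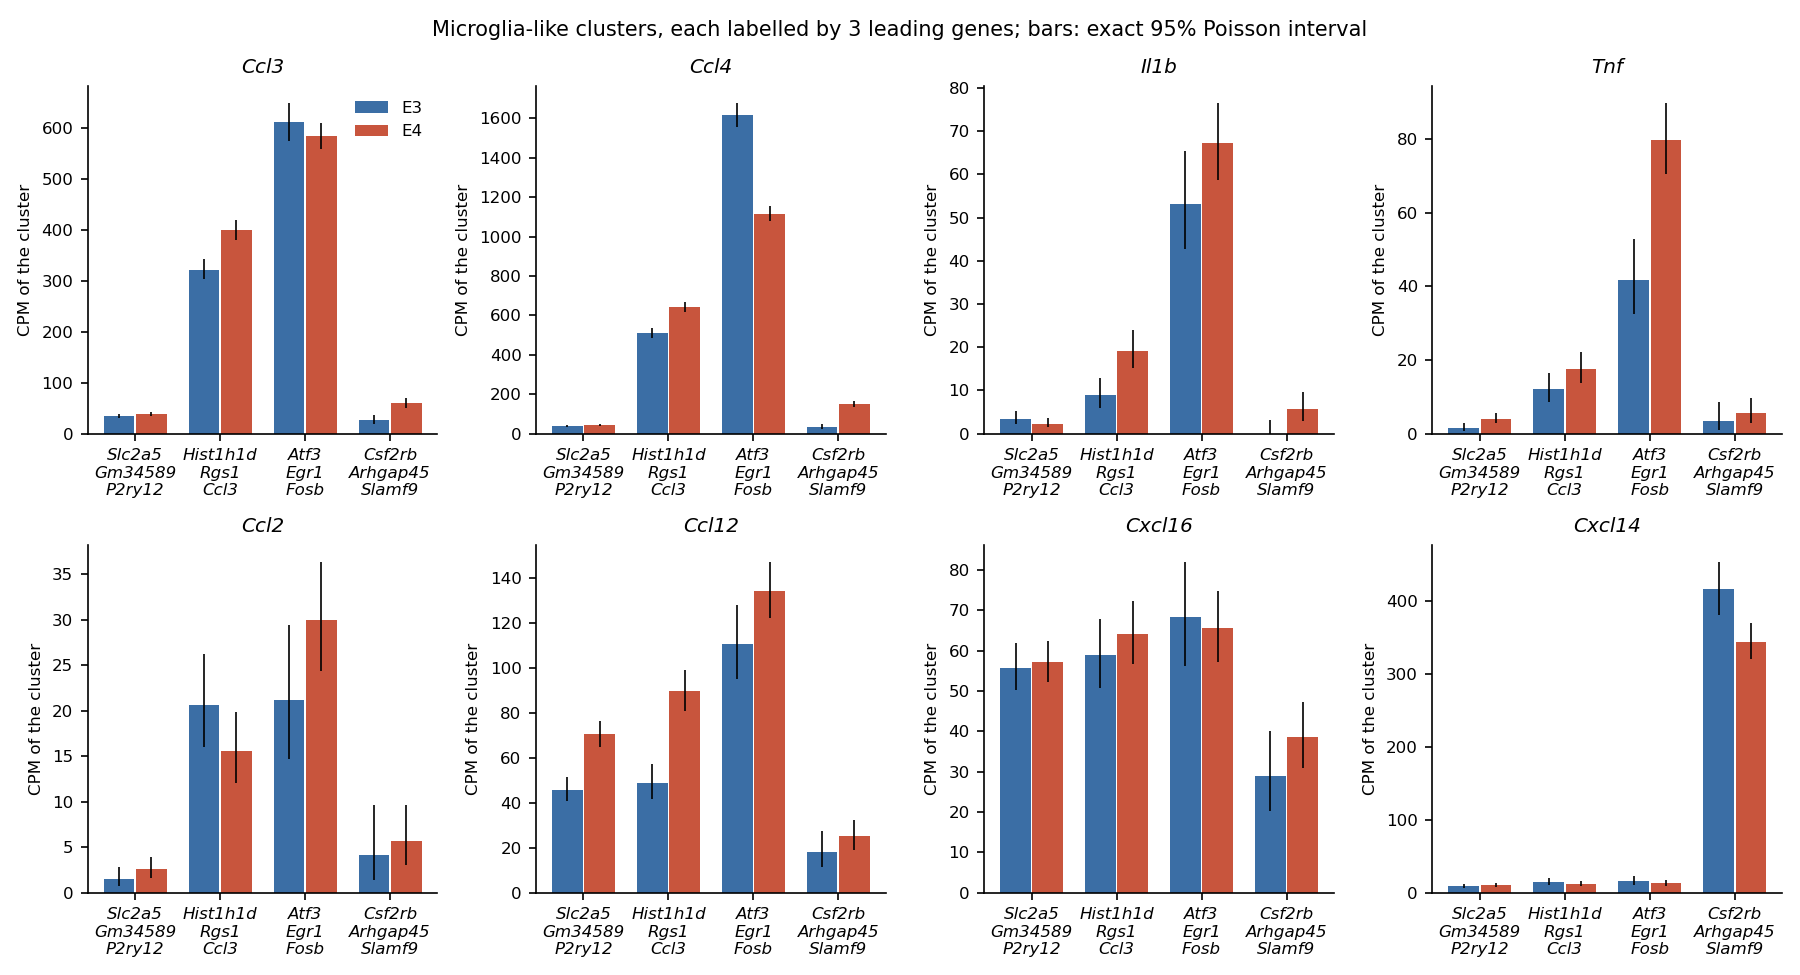
Levels of 8 genes (CPM of the cluster, axes from 0) in the 4 microglia-like clusters of the E3 (blue) and E4 (red) libraries, with exact 95% Poisson intervals and 3 leading genes naming each cluster. Ccl3, Ccl4, Il1b and Tnf are highest in the Atf3 cluster, where Ccl4 was at 1617 and 1116 CPM, and Cxcl14 is highest in the Csf2rb cluster.

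The macrophage-like class was not uniform and was split again without the 10 genes. A sub-cluster led by Ccl7, Klf4 and Lyve1, a marker of perivascular and meningeal macrophages, counted 46 E3 and 48 E4 cells and held 74.7% and 69.6% of the class's Ccl2 UMIs. Its Ccl12 was at 4548 and 1892 CPM in E3 and E4, and Cxcl2 at 1350 and 311 CPM. A sub-cluster led by Ighm, Tmem119 and the MHC class II gene H2-Eb1, with 29 and 32 cells, held 66.8% and 68.0% of Ccl4 UMIs, at 1519 and 1224 CPM. It also carried microglia markers at 12978 and 11015 CPM and B cell markers, Ighm among them, at 270.4 and 4749 CPM summed. The sub-cluster led by Slc40a1, Stard8 and Cd163, 40 and 49 cells, had little Ccl4, at 9.69 and 17.3 CPM, and 0 Il1b UMIs in either library.

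Il1b had a further source. The sub-cluster led by Plac8 and S100a4 (20 and 16 cells), with neutrophil markers at 18271 and 11073 CPM and monocyte markers at 2732 and 1302 CPM summed, held 45.6% and 45.1% of the class's Il1b UMIs, at 953 and 1221 CPM. These cells carried 0 Ccl12 UMIs in both libraries. Ccl3 was higher in E4 in each of the 5 sub-clusters that held any. Ccl12 was lower in E4 in each of the 5 that held any, which include the shallow Mbp and Bc1 sub-cluster and the 12 and 6 cells led by the astrocyte genes Entpd2 and Hes5. Over the whole class, neutrophil markers stood at 3230 and 1373 CPM, monocyte markers at 506 and 222 CPM, B cell markers at 272 and 1396 CPM and endothelial markers at 41.6 and 389 CPM in E3 and E4, and all 8 endothelial markers were higher in E4. Without the Plac8 and the Hes5 sub-clusters, left out after seeing the data, the log2 ratio was 0.31 for Ccl3 and -0.57 for Ccl4, and 0 members were 1.5-fold higher.

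**Figure D4:**
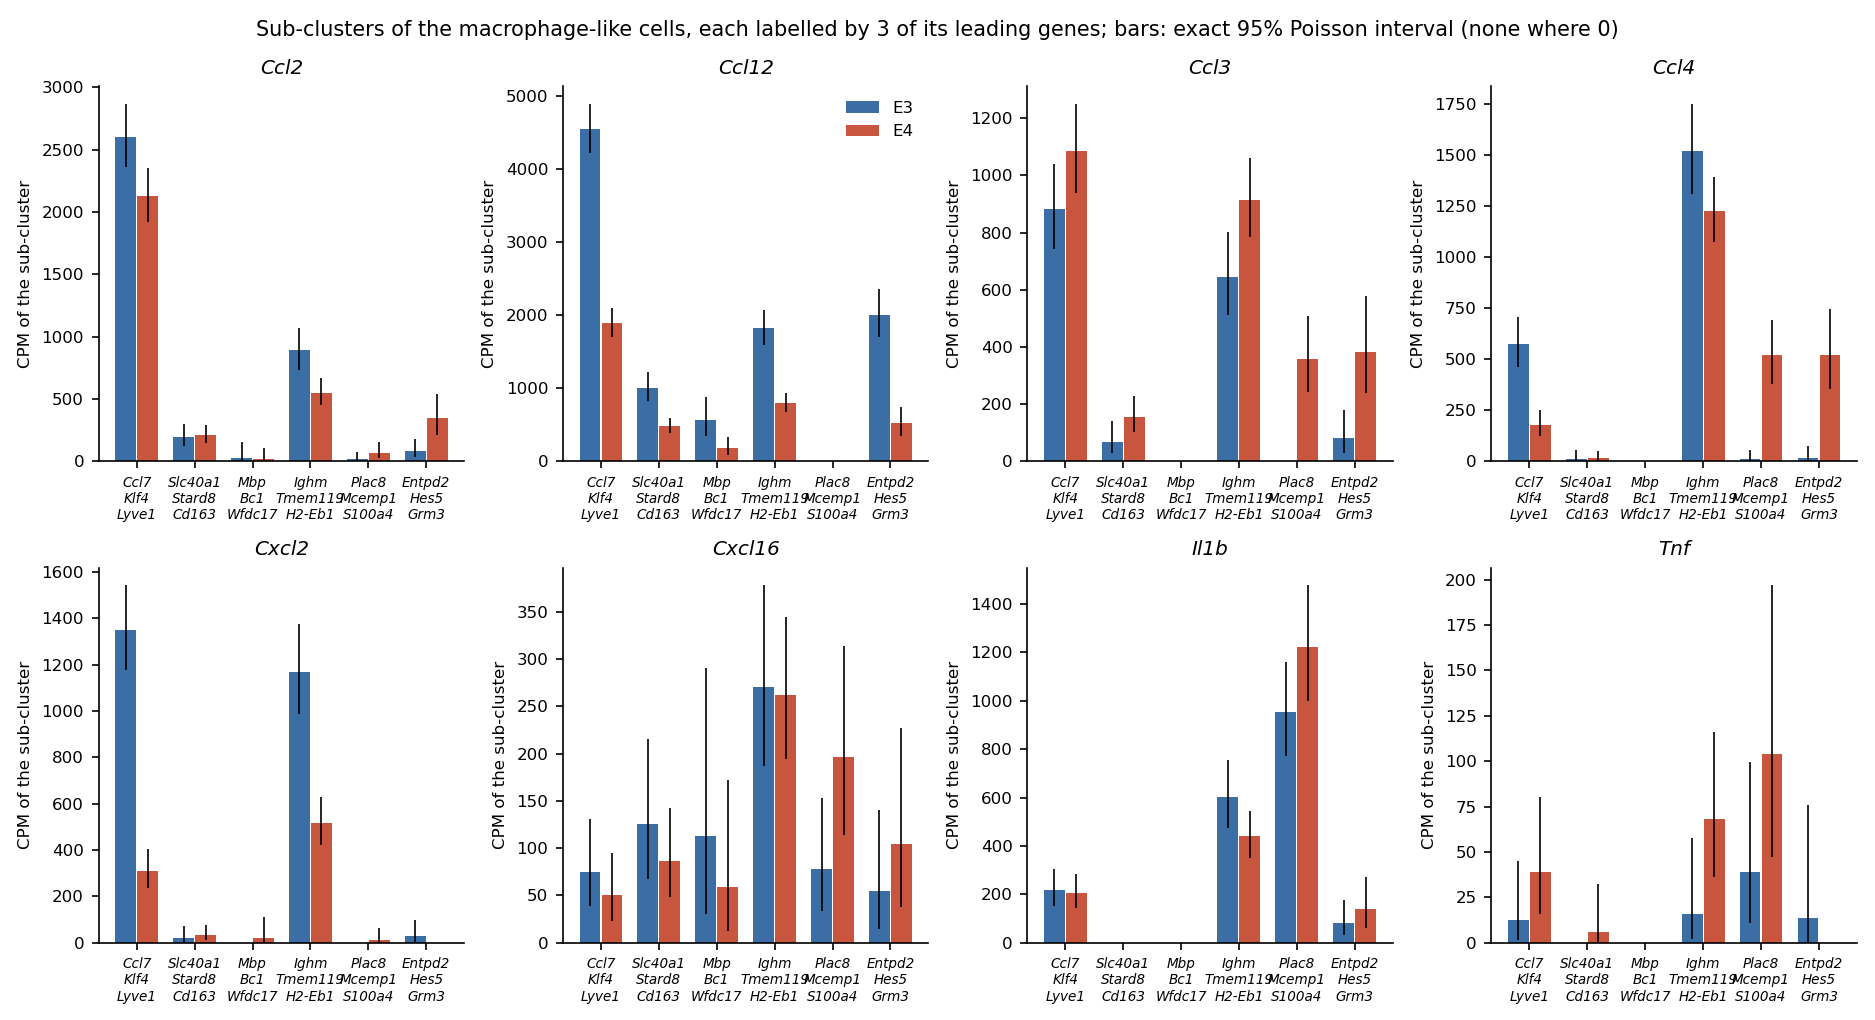
Levels of 8 genes (CPM of the sub-cluster, axes from 0) in 6 sub-clusters of the macrophage-like cells of the E3 (blue) and E4 (red) libraries, with exact 95% Poisson intervals where the level is above 0. Ccl12 is lower in E4 in each of the 5 sub-clusters that hold it, 4548 against 1892 CPM in the Lyve1 sub-cluster, and Il1b is highest in the Plac8 sub-cluster.

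Transcripts were held by few cells. Among microglia-like cells, 36 of 3192 in E3 and 48 of 3939 in E4 held 50% of Ccl4 UMIs, and 37 and 62 held 50% of Ccl3 UMIs. For Il1b these were 9 and 10 cells and for Tnf 22 and 46 cells. Cxcl16 was the contrast, with 231 and 315 cells. In macrophage-like cells 9 E3 and 10 E4 cells held 50% of Ccl2 UMIs, and 9 and 8 held 50% of Ccl12 UMIs. The cell with the most Ccl12 held 8.88% of macrophage-like UMIs in E3 and 10.2% in E4. In the E4 microglia-like class 1 cell held 120 of 1490 Ccl12 UMIs.

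**Figure D5:**
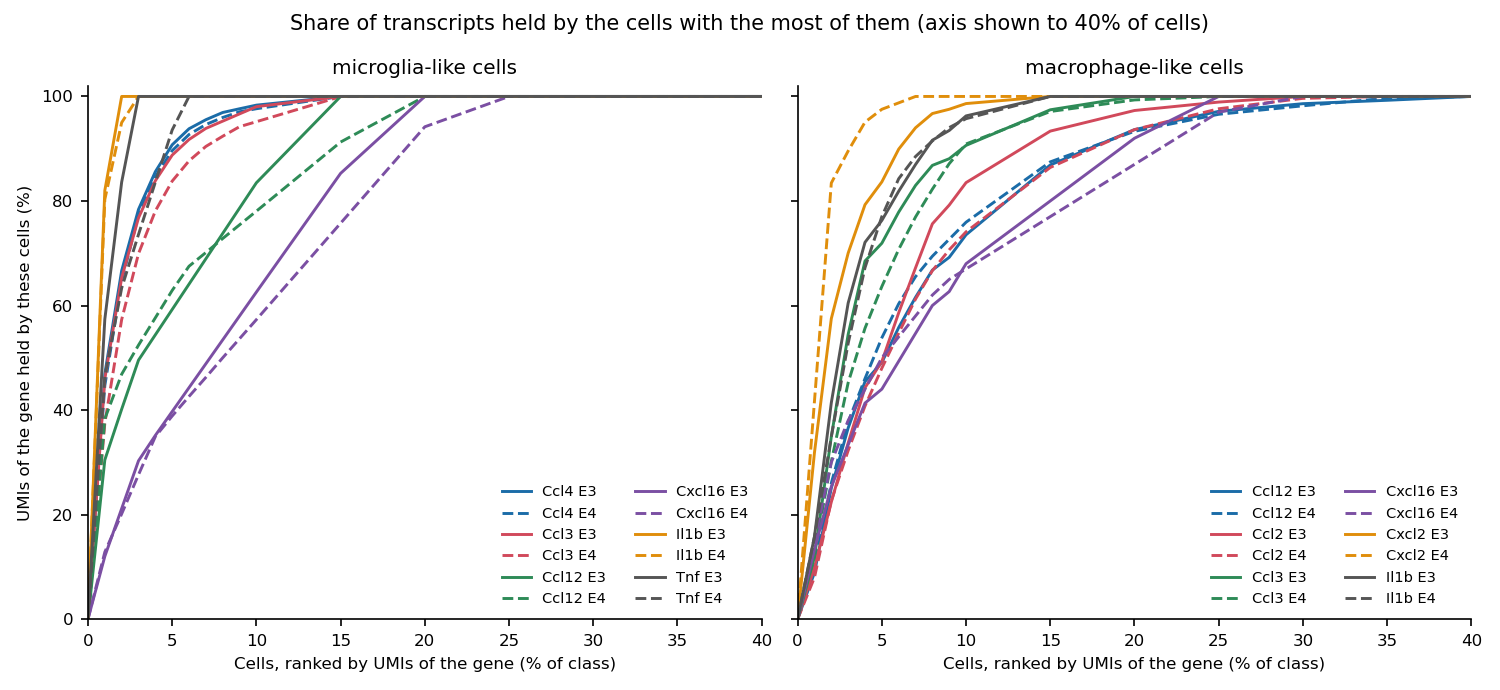
Share of a gene's UMIs (%) held by the cells with the most of them, ranked within the class and shown up to 40% of cells, for 6 genes in microglia-like (left) and 6 in macrophage-like cells (right), E3 solid and E4 dashed. In microglia-like cells 1% of cells held 82.0% of Il1b UMIs in E3 and 80.3% in E4, against 12.0% and 12.8% of Cxcl16 UMIs.

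The neighbours Ccl3 and Ccl4 were often found in the same cells. With each cell thinned to 1000 UMIs, 42.7% of the 232 E3 and 39.7% of the 317 E4 microglia-like cells with Ccl4 also had Ccl3, against 3.35% and 4.76% of those without Ccl4. Tnf was found in 3.02% and 5.68% of cells with Ccl4 and in 0.587% and 1.36% of those without. In macrophage-like cells, 70.3% of 37 E3 and 57.1% of 35 E4 cells with Ccl2 also had Ccl12, against 24.1% and 16.5% of those without. Cxcl16 did not follow Ccl4 in E3, at 3.45% of cells with and 4.80% of cells without it, and was at 10.7% and 5.15% in E4.

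Genes of the same pathways were read from lists. Of all 11893 genes measured in microglia-like cells, 63.2% were higher in E4, with a median log2 ratio of 0.06. At 1.5-fold, 2.87% were higher and 1.24% lower. The counts below stand beside these shares. Immediate-early and stress genes leaned to E4 in microglia-like cells, 22 of 26 measured, with a median log2 ratio of 0.22 and summed levels of 13074 and 15485 CPM. By cluster the sums were 3496 and 3597 CPM (P2ry12), 18647 and 18860 (Rgs1), 44431 and 46981 (Atf3) and 6440 and 7696 (Csf2rb). The Atf3 cluster, led also by Egr1 and Fosb, made up 12.6% of E3 and 17.9% of E4 microglia-like cells, and its part was not tested. Fosb, at 167 and 265 CPM, and Egr1, at 459 and 735 CPM, were past 1.5-fold, and the heat shock gene Hspa1b was the 1 past it downwards, at 29.0 and 15.6 CPM. Of 21 NF-kappaB targets and feedback genes 17 were higher (median 0.18), with Nfkbiz at 48.0 and 74.7 CPM, Ier3 at 48.8 and 87.0 CPM and Bcl3 past 1.5-fold. Of 19 genes of the interleukin 1 and TNF systems 13 were higher (median 0.06, as over all genes), and only Irak3, a negative regulator of the receptor pathway, was past 1.5-fold, at 3.496 and 5.58 CPM. Il1a, which encodes interleukin 1 alpha, was highest in microglia-like cells, at 57.8 and 81.6 CPM, with only classes of 100 or more cells compared. Homeostatic microglial genes were split, 6 of 12 higher, with a median of -0.0011, and disease-associated microglial genes were 9 of 12 higher (median 0.12). Other cytokines were 7 of 10 higher (median 0.07), led in level by Tgfb1, and none was past 1.5-fold.

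Receptors lay in part in the same classes as the ligands. The highest receptor levels were sought only among the larger classes, those of 100 or more cells for both genotypes. The T or NK cell-like, mural-like and oligodendrocyte precursor-like classes were thus not compared. Within this limit, Ccr1 stood at 148 and 172 CPM and Ccr2 at 127 and 146 CPM in macrophage-like cells, their highest class. Of the Cxcl12 receptors, Cxcr4 was highest among the larger classes in ependymal-like cells, at 59.8 and 45.6 CPM. The scavenger Ackr3 was highest among them in endothelial-like cells, at 31.4 and 32.7 CPM, but stood at 118 and 151 CPM in mural-like cells. Cxcr6, the Cxcl16 receptor, was at 496 and 700.4 CPM in the small T or NK cell-like class, from 46 and 71 UMIs, and at 1.67 and 12.2 CPM in macrophage-like cells. Among the larger classes, the interleukin 1 receptor Il1r1 was highest in endothelial-like cells, at 19.2 and 23.1 CPM. The TNF receptor Tnfrsf1b was highest among them in microglia-like cells, at 73.7 and 79.2 CPM. Of 6 measured chemokine receptors in microglia-like cells 4 were higher in E4 (median 0.15), beside 63.2% of all genes measured there, and none was past 1.5-fold.

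Genes with the most similar pattern were sought by the Pearson correlation of log2(CPM + 1), averaged over libraries, across the 10 classes with at least 100 cells in each, among 13865 genes. The points share the 2 libraries and the cell naming, and the values are a description. Ccl3 was most like Lrch4 (r = 0.989) and then Ccl4 (r = 0.977), and Ccl2 was most like Ccr2 (r = 0.988). Ccl12 followed Ms4a6c (r = 0.995), Cxcl2 Ms4a7 (r = 0.991), Il1b Ifi209 (r = 0.985) and Tnf Ighm (r = 0.993). Cxcl12 followed the endothelial gene Jcad (r = 0.993), Cxcl14 the astrocyte gene Aldoc (r = 0.994) and Cxcl16 the MHC class II gene H2-DMb1 (r = 0.972).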

How the data were processed

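Each library was made from 3 pooled hemispheres with a 3' droplet kit. The authors ran Cell Ranger (6.1.2 for E3 and 6.1.1 for E4 in the file headers) on mm10, and deposited raw UMI counts per gene and cell with no normalization. The annotation release is not given in the sources used here. From these counts, cells outside 50 to 50000 UMIs or above 30% mitochondrial UMIs were dropped, as in the study, and the rest were scaled to 10000 UMIs and log-transformed. The 10 genes were left out of 2000 variable genes, 20 principal components and 15 neighbours were used, and clusters came from the Leiden method at resolution 1 (leidenalg 0.10.2, scikit-learn 1.9.0), with both libraries together and no batch correction. A name needed 3 markers at 2-fold and in 20% of cells. Shallow or mixed clusters stayed unnamed by limits set after the clusters were seen, and sub-clusters with markers of other classes (0.921% of E3 and 1.09% of E4 cells) were left out of the astrocyte-like class. Names were rebuilt here, and so shares may differ from those of the study. Doublets were kept in the reported values, and Scrublet (scanpy 1.11.5) marked 4.69% of E3 and 6.25% of E4 cells for an alternative.

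UMIs were summed per class and library and given as CPM. Levels have exact Poisson, shares exact binomial and ratios exact binomial-split 95% intervals, all for counting error only, and the scripts were tested on simulated data. Ratios are given where a gene had at least 50 UMIs. No test was made, since each genotype is 1 library. The genes named are the 10 members and, of each list, counts, abundant genes and those past 1.5-fold in microglia-like cells, and per member the most similar genes. Receptors beyond that rule, Il1a, and the genes of the closing observations were chosen after their values were seen. The members and lists were chosen with earlier results of these data known. Gene positions are from GENCODE vM21 and promoters from RefSeq. Alternatives changed the cell filter, doublets, totals, thinning, averaging, clustering and the minimum UMI count.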

Additional observations from a re-analysis of the deposited data

Results flagged for a closer look

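Results on opposite sides of 0, with counting intervals that leave out 0, were sought among the microglia-like, macrophage-like, endothelial-like and astrocyte-like cells. None of the differences could be tested with 1 library per genotype. The log2 ratio of E4 to E3 of Ccl12 was 1.92 higher in microglia-like (0.62) than in macrophage-like cells (-1.30). That of Cxcl12 was 0.84 higher in astrocyte-like (0.72, on 46 and 84 UMIs) than in endothelial-like cells (-0.11). That of Cxcl14 was 0.77 higher in astrocyte-like (0.08) than in macrophage-like cells (-0.70, on 71 and 54 UMIs). Of these macrophage-like UMIs, 58 and 33 lay in the 12 and 6 cells led by the astrocyte genes Entpd2 and Hes5. Among the 5 macrophage-like sub-clusters with Cxcl14, its level was higher in E4 in 3 and lower in 2. Smaller classes held further opposite directions. The log2 ratio of Ccl3 was -1.25 and that of Ccl4 -2.17 in meningeal-like cells, where 1 E3 cell held most UMIs. That of Ccl4 was -0.98 in neuroprogenitor-like cells, with 56 of 65 E3 UMIs in 1 cell, and 1.94 in oligodendrocyte-like cells. In the latter, 103 of 126 E4 UMIs lay in the Arc-led cluster that carried microglia markers. The log2 ratio of Cxcl14 was -0.95 in choroid plexus-like and 0.42 in oligodendrocyte-like cells. Of the oligodendrocyte-like Cxcl14 UMIs, 120 of 184 in E3 and 218 of 300 in E4 lay in the Klk6-led cluster of 30 and 58 cells. That cluster carried astrocyte markers at 9006 and 8571 CPM summed, and their part was not tested. Its Cxcl14 ratio was -0.08 (-0.40 to 0.26), beside 0.17 (-0.36 to 0.71) in the Ermn-led cluster.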

How the results depend on the processing

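No paired analysis was possible because each genotype had 1 library. Ratios were recomputed under each alternative, and 159 of them stayed within the counting interval of the reported value. Another 36 moved outside it, and 2 reversed a direction whose reported interval left out 0. In microglia-like cells Tnf (0.73 to 1.25), Il1b (0.46 to 0.81) and Ccl12 (0.59 to 0.79) kept their direction, as did Ccl12 (-1.50 to -1.01) and Cxcl2 (-2.04 to -1.40) in macrophage-like cells. The causes of the moves below were not tested. With cells of 1000 to 25000 UMIs and at most 10% mitochondrial UMIs, Ccl3 was at 1.02 in macrophage-like, Cxcl12 at -0.056 in endothelial-like, and Cxcl14 at -0.035 in astrocyte-like, which reversed it, and -0.22 in microglia-like cells. Without called doublets, macrophage-like Ccl2 was at -0.49, Ccl4 at -0.32, Ccl12 at -1.49, Cxcl2 at -2.04 and Cxcl16 at -0.48, endothelial-like Cxcl12 at -0.040 and microglia-like Cxcl14 at -0.11. At Leiden resolution 0.5, microglia-like Cxcl14 was at -0.10, and at resolution 2 it was at -0.083, with macrophage-like Ccl12 at -1.50 and Cxcl2 at -1.98. With cells thinned to 1000 UMIs, macrophage-like Ccl4 was at -1.44 and Il1b at 0.33, and in microglia-like cells Ccl3 was at 0.36, Ccl4 at 0.19, Ccl12 at 0.79, Cxcl12 at 0.97, Cxcl14 at -0.10 and Cxcl16 at 0.29. With the mean of the CPM of each cell, macrophage-like Ccl3 was at 0.092, Ccl4 at -1.19, Ccl12 at -1.01 and Il1b at 0.29, astrocyte-like Cxcl14 at 0.024 and microglia-like Ccl3 at 0.36. With microglia-like clusters weighted alike, Ccl3 was at 0.14, Ccl4 at -0.13, which reversed it, and Cxcl14 at -0.22. Among alternatives chosen after seeing the data, leaving out the Atf3 cluster gave Ccl2 -0.18, Ccl4 0.33 and Tnf 0.73 in microglia-like cells, and leaving out the Plac8 and Hes5 sub-clusters gave Ccl2 -0.55, Ccl3 0.31 and Ccl4 -0.57 in macrophage-like cells. The number of members 1.5-fold higher in macrophage-like cells, 1 as reported, was 0 without called doublets, at resolution 2, with the mean over cells and without those sub-clusters. The leading class was the same for 7 of the 10 members without called doublets, for 8 at resolution 2 and for 10 under the other alternatives run. Depth limits Tnf and Cxcl14 in macrophage-like cells, with 9 and 30 and with 71 and 54 UMIs in E3 and E4.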

Other observations

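Other chemokines of the macrophage-like cells, named after their values were seen, were mostly lower in E4. Of 11 with at least 50 UMIs, 10 were lower and 1 higher (Ccl6, at 158 and 223 CPM), with a median log2 ratio of -0.56, where 42.2% of all genes measured there were lower and their median was 0.06. Ccl8, a monocyte attractant, was at 645 and 87.8 CPM in E3 and E4, and the interferon-induced Cxcl9 and Cxcl10 at 101.6 and 13.5 CPM and at 94.9 and 28.4 CPM. Pf4, a platelet factor also used as a border macrophage marker, was the most abundant, at 3521 and 3406 CPM, and Ccl7 stood at 1274 and 935 CPM.

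In microglia-like cells 3 of 8 other chemokines were higher in E4, beside 63.2% of all genes measured there. Cxcl10 stood at 6.04 and 20.3 CPM there, the opposite direction to macrophage-like cells, and Ccl5 at 2.70 and 8.72 CPM, while Ccl6 and Ccl9 stood at 118 and 119.7 CPM and at 114 and 100.4 CPM.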
